A study of Mus musculus with 6 samples.

Results

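The nucleotide synthesis enzymes examined here were *Rrm1*, *Rrm2*, *Tyms*, *Tk1*, *Cad*, *Umps*, *Gart*, *Paics* and *Impdh2*, chosen by gene symbol as 9 of the 20409 features in a table of raw counts. All 9 were present and passed the filter on low counts. They were measured in the duodenal villus epithelium of 3 double mutant mice (double mutant villi, DMV) and 3 wild-type mice (wild-type villi, WTV), with 1 polyA-enriched RNA-seq library per mouse. DMV mice were *Smad4* fl/fl and *Ctnnb* exon3 fl/wt with tamoxifen-inducible Villin-CreERT2, which is active across the intestinal epithelium, and they lost Smad4 and gained stabilised β-catenin after tamoxifen, about a week before the villi were taken. WTV mice were littermates that were not injected. Whether these carried the floxed alleles or the Cre is not given in the sources used here, and genotype and tamoxifen cannot be told apart. Per the study's methods, age and sex were matched between the groups. Mouse 1 of each group was male and mice 2 and 3 were female. Villi were released with EDTA and kept on a filter, which selects large fragments and not a cell type.

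Cells that divide need a supply of deoxynucleotides for DNA and of ribonucleotides for RNA, and they draw on synthesis from small precursors (*de novo*) and on salvage of preformed bases and nucleosides. Ribonucleotide reductase turns ribonucleotides into deoxynucleotides, thymidylate synthase and thymidine kinase provide thymidylate, and separate chains of enzymes build the pyrimidine and purine rings. In the intestine, these enzymes are best known from the dividing cells of the crypt, whereas the villus carries mainly differentiated absorptive cells.

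For all 9 enzymes every DMV mouse was above every WTV mouse, and 8 of the 9 passed an adjusted p of 0.05 (edgeR quasi-likelihood test, adjusted over 13346 genes). Over all genes tested, 36.8% were called in either direction, 19.7% were called higher, and every DMV library lay above every WTV library for 28.1%. *Tk1* was the enzyme that did not pass. With 1 mouse left out, 5 to 8 of the 9 passed. The median log2 fold change (log2FC, DMV over WTV) of the enzymes was 1.44, against 0.02 over all genes tested. In 7 of them the log2FC exceeded 1, which together with the adjusted p held for 10.9% of all genes, and in 3 (*Rrm2*, *Tyms* and *Impdh2*) it exceeded 2, for which the share was 3.04%. Read counts scaled to a common library size with TMM factors (CPM, per 1000000 counts), summed over the 9 enzymes, came to 24.8, 47.3 and 50.5 in WTV mice 1 to 3 and 103.1, 119.1 and 110.4 in DMV mice 1 to 3. The sum was therefore 40.9 ± 14 CPM in WTV and 111 ± 8.02 CPM in DMV (SD, n = 3 each), a 2.71-fold difference. In bulk samples, more cells that express a gene and more RNA per cell cannot be told apart.

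The starts of 4 of these genes are shown because 3 of the enzymes share a sequence word there and *Rrm2*, with the largest change, lacks it. The RefSeq table (GRCm38.p6) held a promoter for all 9 enzymes, from 250 bases before to 50 bases after the start, and the word CACGTG (the E-box read by Myc family factors, its own reverse complement) occurred in 3 of 9, against 7.15% of all 32851 promoters. The 250 bases before the start are printed for *Tyms* at chr5:30073626-30073875 (minus strand), *Paics* at chr5:76951052-76951301 (plus strand), *Impdh2* at chr9:108560186-108560435 (plus strand) and *Rrm2* at chr12:24708004-24708253 (plus strand), each read 5′ to 3′ along the gene, with CACGTG and CCAAT in capitals.
Tyms: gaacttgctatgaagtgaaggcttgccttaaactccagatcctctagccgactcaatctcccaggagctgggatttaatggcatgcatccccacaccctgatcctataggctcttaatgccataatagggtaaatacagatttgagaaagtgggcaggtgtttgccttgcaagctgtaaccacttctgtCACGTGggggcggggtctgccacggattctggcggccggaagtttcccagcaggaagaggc
Paics: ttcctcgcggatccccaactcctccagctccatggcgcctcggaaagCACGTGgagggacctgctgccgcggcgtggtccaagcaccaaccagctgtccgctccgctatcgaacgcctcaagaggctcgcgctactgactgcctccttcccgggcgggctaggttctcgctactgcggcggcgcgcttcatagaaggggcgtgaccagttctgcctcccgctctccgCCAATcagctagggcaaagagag
Impdh2: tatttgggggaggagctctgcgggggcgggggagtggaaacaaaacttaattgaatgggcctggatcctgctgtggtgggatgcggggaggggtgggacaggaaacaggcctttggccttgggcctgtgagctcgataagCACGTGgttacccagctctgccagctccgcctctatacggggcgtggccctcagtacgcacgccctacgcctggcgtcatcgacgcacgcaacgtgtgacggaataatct
Rrm2: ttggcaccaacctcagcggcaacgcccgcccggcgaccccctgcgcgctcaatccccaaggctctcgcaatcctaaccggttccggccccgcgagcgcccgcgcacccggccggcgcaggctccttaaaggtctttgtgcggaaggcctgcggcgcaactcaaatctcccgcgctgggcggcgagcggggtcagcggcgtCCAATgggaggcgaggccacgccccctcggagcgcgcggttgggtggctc
CACGTG began 61 bases before the start of *Tyms*, 203 before that of *Paics* and 110 before that of *Impdh2*. The word CCAAT, searched on both strands, occurred in 5 of the 9 promoters, against 37.4% of all. The E2F words TTTCGCGC, TTTGGCGC and TTTCCCGC, also searched on both strands, occurred in 0 of the 9, against 1.84% of all. Only these 3 exact E2F words were searched, so that 0 matches do not exclude other forms of the site. A match or its absence describes the letters in the window, and nothing was measured of binding.

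The check of the labels came from the targeted genes. *Smad4* was at 148 ± 30.3 CPM in WTV and 31.7 ± 5.40 CPM in DMV (SD, n = 3 each), a log2FC of -2.22 (adjusted p = 0.000145). *Ctnnb1*, of which the mutation removes an exon that counts per gene do not separate, had 932 ± 53.6 CPM in WTV and 841 ± 79.7 CPM in DMV (log2FC -0.15, adjusted p = 0.359). Libraries held 19678507 to 26337318 counts, so that 3 counts correspond to 0.125 to 0.163 CPM, and every enzyme was above this level in every mouse. The 10 enterocyte markers, such as *Alpi*, *Sis* and *Apoa1*, summed to 50483 ± 3657 CPM in WTV and 29752 ± 1115 CPM in DMV, with 6 of 10 called lower and 1, *Fabp1*, higher. WTV mouse 1 stood apart from the other WTV mice. Its Paneth cell markers summed to 7.91 CPM, against 909.2 and 1499.8 in WTV mice 2 and 3 and 153 to 248 in DMV, and its goblet cell markers to 122 CPM, against 11490 and 10839 in the other WTV mice and 4397 to 4857 in DMV. Of these, 0 of 6 Paneth markers were called, and 1 of 7 goblet markers, *Clca1*, was called higher and 0 lower. Its crypt stem cell markers were also low, at 83.2 CPM against 184.2 and 193.3. All 9 enzymes were lowest in this mouse among the WTV mice, as were 38.2% of all genes tested. The part of this library in the results was not tested, and each enzyme is given with and without it.

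Ribonucleotide reductase makes deoxynucleotides and is built of a large subunit, *Rrm1*, and a small subunit, *Rrm2*, whose protein is abundant in S phase. *Rrm2* (chr12:25393106-25399011, plus strand, mm9) was at 0.500, 1.90 and 1.77 CPM in WTV mice 1 to 3 and at 7.65, 10.02 and 8.92 CPM in DMV mice 1 to 3. The WTV values rested on 12, 35 and 35 reads. Every DMV mouse was far above every WTV mouse, and *Rrm2* rose by 2.69 on the log2 scale (SE 0.431, 6.45-fold, adjusted p = 0.00220), the largest change of the 9. Only 1.15% of genes tested had a larger log2FC. Without WTV mouse 1 the log2FC was 2.27.

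*Rrm1* (chr7:109590209-109618285, plus strand) was at 4.67, 9.03 and 11.9 CPM in WTV mice 1 to 3 and at 18.5, 17.2 and 16.8 CPM in DMV mice 1 to 3. The DMV mice were close together and the WTV mice spread 2.25-fold between mouse 1 and the mean of the others. The log2FC of 1.04 (SE 0.299, 2.05-fold) had an adjusted p of 0.0270. The call was lost without WTV mouse 2 (adjusted p = 0.0697) and without DMV mouse 1, 2 or 3 (0.0791, 0.0764 and 0.0619), while the log2FC stayed between 0.74, without WTV mouse 1, and 1.35.

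The subunits were also compared within each library. Reads of *Rrm2* per read of *Rrm1* (1 added to each) were 0.115, 0.216 and 0.152 in WTV mice 1 to 3 and 0.415, 0.583 and 0.534 in DMV mice 1 to 3, a log2 difference of 1.70. The groups did not overlap (exact two-sided permutation test, p = 0.1, the smallest that 3 mice against 3 allow, 0.15 adjusted over 6 ratios). *Rrm2b* encodes the alternative small subunit, which p53 induces outside S phase. It was at 6.42 ± 0.193 CPM in WTV and 5.04 ± 0.435 CPM in DMV (log2FC -0.35, adjusted p = 0.183). Reads of *Rrm2* per read of *Rrm2b* were 0.0867, 0.295 and 0.279 in WTV and 1.46, 2.19 and 1.66 in DMV, so that *Rrm2b* had more reads than *Rrm2* in all 3 WTV mice and fewer in all 3 DMV mice (log2 difference 3.18, exact two-sided permutation p = 0.1, adjusted 0.15).

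**Figure D1:**
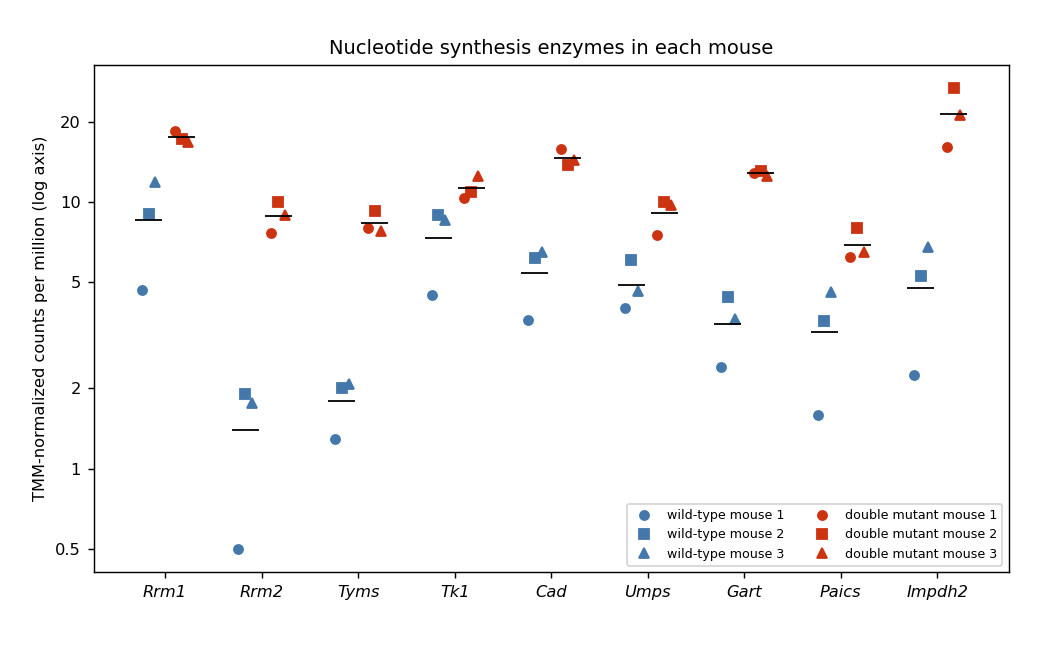
TMM-normalised CPM (log axis) of each of the 9 enzymes, with 1 point per mouse for 3 WTV and 3 DMV mice and a line at each group mean. For every enzyme the DMV points lie above the WTV points, and WTV mouse 1 is the lowest point, from 0.500 CPM for *Rrm2* to 4.67 CPM for *Rrm1*.

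Thymidylate, the nucleotide particular to DNA, comes from dUMP through thymidylate synthase, *Tyms*, or from thymidine through the cytosolic thymidine kinase, *Tk1*. *Tyms* (chr5:30384742-30400157, minus strand) was at 1.29, 2.01 and 2.07 CPM in WTV mice 1 to 3 and at 7.98, 9.23 and 7.78 CPM in DMV mice 1 to 3. The spread within each group was small beside the gap between them, and *Tyms* rose by 2.22 on the log2 scale (SE 0.255, 4.66-fold, adjusted p = 0.000484). This was the smallest adjusted p of the 9, and the log2FC was 2.02 without WTV mouse 1. A predicted gene on the other strand, *Gm17448*, overlaps *Tyms* over 1476 bases.

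*Tk1* (chr11:117676840-117687406, minus strand) was at 4.5, 8.92 and 8.54 CPM in WTV mice 1 to 3 and at 10.4, 10.9 and 12.5 CPM in DMV mice 1 to 3. The groups did not overlap, but WTV mice 2 and 3 came close to the DMV mice. The log2FC was 0.63 (SE 0.262, adjusted p = 0.0932), and 0.37 without WTV mouse 1 (adjusted p = 0.127). It passed the threshold when libraries were scaled by their size alone (log2FC 0.81, adjusted p = 0.0427) and with sex as a covariate (0.68, adjusted p = 0.0366). Over its 10567 bases *Tk1* is overlapped by *Afmid* on the other strand, for which the log2FC was -0.11 (adjusted p = 0.565). The strand setting of the counting is not given in the sources used here, so that reads of the pair may be mixed. The mitochondrial thymidine kinase *Tk2* had a log2FC of 0.62 (adjusted p = 0.134), and the ratio of *Tk1* to *Tk2* overlapped between the groups (log2 difference 0.04, exact two-sided permutation p = 0.8), with the sign turned without WTV mouse 1 (-0.05) or DMV mouse 2 (-0.02).

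Pyrimidine synthesis begins with *Cad*, a fusion enzyme that carries carbamoyl phosphate synthetase, aspartate transcarbamylase and dihydroorotase, and ends at UMP with *Umps*. *Cad* (chr5:31357153-31380852, plus strand) was at 3.62, 6.15 and 6.52 CPM in WTV mice 1 to 3 and at 15.8, 13.8 and 14.4 CPM in DMV mice 1 to 3. All DMV mice exceeded the highest WTV mouse by a wide margin, and *Cad* rose by 1.44 on the log2 scale (SE 0.235, 2.71-fold, adjusted p = 0.00223). Without WTV mouse 1 the value was 1.21.

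*Umps* (chr16:33954868-33967124, minus strand) was at 4.00, 6.04 and 4.65 CPM in WTV mice 1 to 3 and at 7.51, 10.02 and 9.78 CPM in DMV mice 1 to 3. It rose less, by 0.90 on the log2 scale (SE 0.225, 1.86-fold, adjusted p = 0.0147), and by 0.77 without WTV mouse 1. *Gm15829*, a noncoding transcript on the other strand, overlaps *Umps* over 800 bases. The call was lost without WTV mouse 3 (adjusted p = 0.0504), DMV mouse 2 (0.0596) or DMV mouse 3 (0.0564). The ratio of *Umps* to *Cad* overlapped between the groups (log2 difference -0.57, exact two-sided permutation p = 0.2, adjusted 0.24). *Dhodh*, the mitochondrial enzyme between them, had a log2FC of 0.90 (adjusted p = 0.0226). Its call was lost without WTV mouse 2, DMV mouse 2 or DMV mouse 3.

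Purine synthesis builds the ring on phosphoribosyl pyrophosphate up to IMP, which then gives AMP or GMP. *Gart*, a trifunctional enzyme of early steps, is at chr16:91621431-91647197 (minus strand). It was at 2.42, 4.41 and 3.64 CPM in WTV mice 1 to 3 and at 12.9, 13.1 and 12.5 CPM in DMV mice 1 to 3. The DMV mice were almost equal (12.8 ± 0.298 CPM, SD, n = 3), and *Gart* rose by 1.89 on the log2 scale (SE 0.235, 3.69-fold, adjusted p = 0.000679). The value was 1.67 without WTV mouse 1. *Gm15964*, a noncoding gene on the other strand, overlaps *Gart* over 2676 bases and did not pass the filter. *Son*, an RNA splicing factor gene that starts 554 bases away on the other strand, went from 297 to 247 CPM, with a log2FC of -0.27 (adjusted p = 0.123).

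*Paics* (chr5:77380332-77396534, plus strand), a bifunctional enzyme of the middle of the chain, was at 1.58, 3.59 and 4.6 CPM in WTV mice 1 to 3 and at 6.24, 7.98 and 6.50 CPM in DMV mice 1 to 3. The highest WTV mouse lay nearer to the lowest DMV mouse than in most of the other enzymes. The log2FC was 1.09 (SE 0.361, 2.13-fold, adjusted p = 0.0434), and 0.75 without WTV mouse 1. The call was lost without WTV mouse 2 (adjusted p = 0.0889) and without DMV mouse 1, 2 or 3 (0.0811, 0.136 and 0.0903). *Ppat*, which catalyses the committed step of the pathway, starts on the other strand and overlaps *Paics* over 272 bases, where reads may be mixed. *Ppat* had 1.15 ± 0.626 CPM in WTV and 3.11 ± 0.437 CPM in DMV (log2FC 1.45, adjusted p = 0.0277). Its call was lost without WTV mouse 2 and without DMV mouse 1, 2 or 3. The ratio of *Paics* to *Ppat* was 2.60, 3.35 and 2.49 in WTV mice and 2.35, 2.28 and 2.00 in DMV mice, lower in all of the latter (log2 difference -0.34, exact two-sided permutation p = 0.1, adjusted 0.15). Without WTV mouse 2 the log2 difference was -0.21.

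*Impdh2* (chr9:108462774-108467895, plus strand) encodes IMP dehydrogenase, the limiting enzyme on the branch to guanine nucleotides. It was at 2.25, 5.28 and 6.77 CPM in WTV mice 1 to 3 and at 16.1, 26.8 and 21.3 CPM in DMV mice 1 to 3. The DMV mice spread more than for any other enzyme (SD 5.31 CPM), yet the lowest was above the highest WTV mouse. *Impdh2* rose by 2.17 on the log2 scale (SE 0.388, 4.51-fold, adjusted p = 0.00444), and by 1.83 without WTV mouse 1. Its isozyme *Impdh1* had a log2FC of 0.91 (adjusted p = 0.0545). Reads of *Impdh2* per read of *Impdh1* were 1.53, 4.9 and 5 in WTV mice 1 to 3 and 6.90, 9.32 and 10.2 in DMV mice 1 to 3, with WTV mouse 1 far below the other mice (log2 difference 1.38, exact two-sided permutation p = 0.1, adjusted 0.15). Without WTV mouse 1 the log2 difference was 0.81.

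**Figure D2:**
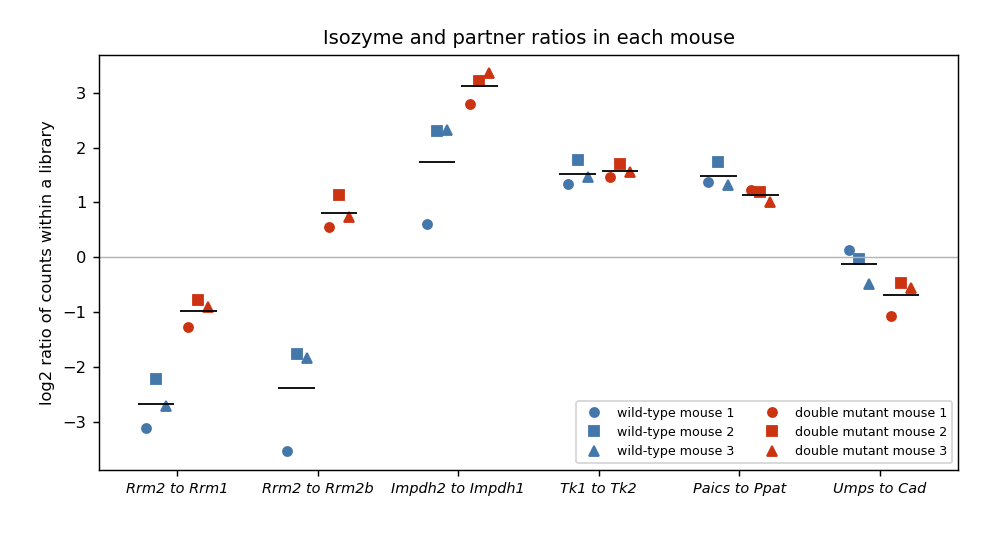
Log2 ratios of the reads of 2 genes within a library (1 read added to each) for 6 pairs, with 1 point per mouse. *Rrm2* to *Rrm1*, *Rrm2* to *Rrm2b* and *Impdh2* to *Impdh1* are higher in every DMV mouse, *Paics* to *Ppat* is lower in every DMV mouse, and *Tk1* to *Tk2* and *Umps* to *Cad* overlap.

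Per kilobase of exon, with the exons of all annotated transcripts of a gene joined, *Impdh2* had the highest level in both groups. In WTV the order of the levels, in CPM per kilobase, was *Impdh2* 2.84, *Rrm1* 2.14, *Tk1* 1.41, *Umps* 1.41, *Paics* 1.04, *Gart* 0.874, *Cad* 0.665, *Rrm2* 0.502 and *Tyms* 0.294. The ranges of all neighbours in this order overlapped. In DMV the order was *Impdh2* 12.7, *Rrm1* 4.37, *Gart* 3.22, *Rrm2* 3.20, *Umps* 2.61, *Paics* 2.20, *Tk1* 2.17, *Cad* 1.80 and *Tyms* 1.37 CPM per kilobase. Here *Impdh2*, *Rrm1*, *Cad* and *Tyms* were separated from their neighbours over all mice, whereas *Gart*, *Rrm2*, *Umps*, *Paics* and *Tk1* overlapped in sequence. *Tyms* thus had the lowest level in both groups on this length. The joined exons spanned 6089 bases for *Tyms*, 5198 for *Tk1* and 1681 for *Impdh2*, and the order depends on these lengths. An order by the length of the main transcript was not examined. As a description over the 6 libraries, the 5 genes whose log2 CPM followed the mean profile of the 9 enzymes most closely were *Actn1*, *4933407K13Rik*, *Slc11a2*, *Utp20* and *Rcc2*, with Pearson correlations of 0.998 to 0.999.

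The other genes of nucleotide metabolism did not all go the same way. Of 46 listed, 45 were in the table and 43 were tested, of which 17 were called higher and 7 lower in DMV, with a median log2FC of 0.29. Over all genes tested, 19.7% were called higher and 17% lower. Of the 24 calls, 14 held whichever of the 6 mice was removed and 10 did not. Values that concern a lost call are given with it.

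In the remainder of deoxynucleotide supply, 3 of 11 genes were called higher and 2 lower, with a median log2FC of 0.32. *Dtymk*, the kinase that follows both routes to thymidylate, rose from 3.13 ± 0.527 to 12.2 ± 1.87 CPM (log2FC 1.96, adjusted p = 0.000383). *Dut*, which removes dUTP and yields the substrate of *Tyms*, went from 1.55 ± 1.05 to 5.91 ± 0.942 CPM (log2FC 1.94, adjusted p = 0.0238), and lost the call without WTV mouse 2 (adjusted p = 0.0575) or DMV mouse 1, 2 or 3 (0.0507, 0.0790 and 0.0672). *Dctd*, the deaminase that makes dUMP, rested on 1, 16 and 3 reads in WTV against 44, 62 and 33 in DMV (log2FC 2.66, adjusted p = 0.0304), and lost the call without WTV mouse 3 (adjusted p = 0.0923) or DMV mouse 1, 2 or 3 (0.0746, 0.103 and 0.0561). Without WTV mouse 2, which held 16 of its WTV reads, the log2FC of *Dctd* was 4.46. *Samhd1*, which degrades deoxynucleotides, fell from 221 ± 23.8 to 146 ± 12.2 CPM (log2FC -0.60, adjusted p = 0.00606). The call of *Samhd1* held without each mouse and under each scaling.

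Among the other genes of pyrimidine synthesis, 3 of 4 were called higher and 0 lower, with a median of 0.77. *Ctps*, the synthase that turns UTP into CTP, rose from 1.16 ± 0.393 to 7.82 ± 0.864 CPM (log2FC 2.76, adjusted p = 0.000428). Its log2FC was slightly above the largest of the 9 enzymes (*Rrm2*, 2.69). Without WTV mouse 2 the order turned, with 2.89 for *Ctps* and 2.98 for *Rrm2*. The isozyme *Ctps2* had a log2FC of 0.64 (adjusted p = 0.0496). Its call was lost with RLE scaling and without WTV mouse 2 (adjusted p = 0.138), WTV mouse 3 (0.107), DMV mouse 1 (0.125) or DMV mouse 3 (0.155). The call of *Dhodh* was lost without WTV mouse 2 (adjusted p = 0.0674), DMV mouse 2 (0.0811) or DMV mouse 3 (0.0878).

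Of the other purine synthesis genes, 9 of 10 were tested, of which 7 were called higher and 1 lower, with a median of 0.91. *Prps1* and *Prps2*, which make phosphoribosyl pyrophosphate, rose by 1.31 and 1.98 on the log2 scale (adjusted p = 0.00151 and 0.000669). *Adsl* and *Atic*, enzymes near the end of the chain to IMP, rose by 0.91 and 1.79 (adjusted p = 0.00203 and 0.00117). *Pfas* rose by 0.75 (adjusted p = 0.0136, 0.0598 without DMV mouse 2). *Gmps*, the step after *Impdh2*, had a log2FC of 0.46 (adjusted p = 0.0351), and the call was lost without each mouse in turn (adjusted p = 0.0550 to 0.0940). *Adss*, on the branch to AMP, was lower (log2FC -0.47, adjusted p = 0.0430), and that call was lost with scaling by library size alone and without WTV mouse 1 or 2 or any of the DMV mice (adjusted p = 0.0559 to 0.131). The call of *Ppat* was lost without WTV mouse 2 (adjusted p = 0.0819) and without DMV mouse 1, 2 or 3 (0.0524, 0.0900 and 0.0771).

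In salvage, 3 of 7 genes were called higher and 0 lower, with a median of 0.04. *Hprt*, which recovers hypoxanthine and guanine, rose from 48.6 ± 3.19 to 90.7 ± 4.10 CPM (log2FC 0.90, adjusted p = 0.000550). *Uck2*, a uridine and cytidine kinase, rose by 1.39 (adjusted p = 0.000970). *Aprt* had a log2FC of 0.51 (adjusted p = 0.0312), lost without WTV mouse 2 or 3 (0.101 and 0.0715) or DMV mouse 2 or 3 (0.111 and 0.0612). *Uprt* was lower in every DMV mouse, with a log2FC of -0.95 (adjusted p = 0.0536), and was called lower with RLE scaling. Of the nucleotide kinases, 1 of the 4 tested was called higher and 0 lower, with a median of 0.06. This was *Nme1*, with a log2FC of 1.37 (adjusted p = 0.00931), whose close copy *Nme2* was not called, and reads of the pair may be divided between them. The log2FC of *Nme2*, which rested on 35, 32 and 6 reads in WTV mice 1 to 3, was -0.36 (adjusted p = 0.657) and ranged from -0.82 to 0.02 with a mouse left out.

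Breakdown genes were lower or not called. Of 9 listed genes, 8 were tested, of which 4 were called lower and 0 higher, with a median log2FC of -0.78 (-0.59 with scaling by library size alone, under which *Upp1* and *Pnp*, neither of them called, turned positive). *Xdh*, which oxidises purines to uric acid, fell from 1953 ± 106 to 965 ± 103 CPM (log2FC -1.02, adjusted p = 0.000647). *Gda*, guanine deaminase, fell by 0.91 (adjusted p = 0.00126) and *Upb1*, which completes pyrimidine breakdown, fell by 1.32 (adjusted p = 0.00548). *Tymp*, thymidine phosphorylase, had a log2FC of -0.65 (adjusted p = 0.0217), and lost the call with scaling by library size alone and without DMV mouse 1, 2 or 3 (adjusted p = 0.0738, 0.0576 and 0.0555). Without WTV mouse 1 the log2FC of *Tymp* was -0.43. The summed level of the 8 genes was 5937 ± 412 CPM in WTV and 3354 ± 327 CPM in DMV (SD, n = 3 each).

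**Figure D3:**
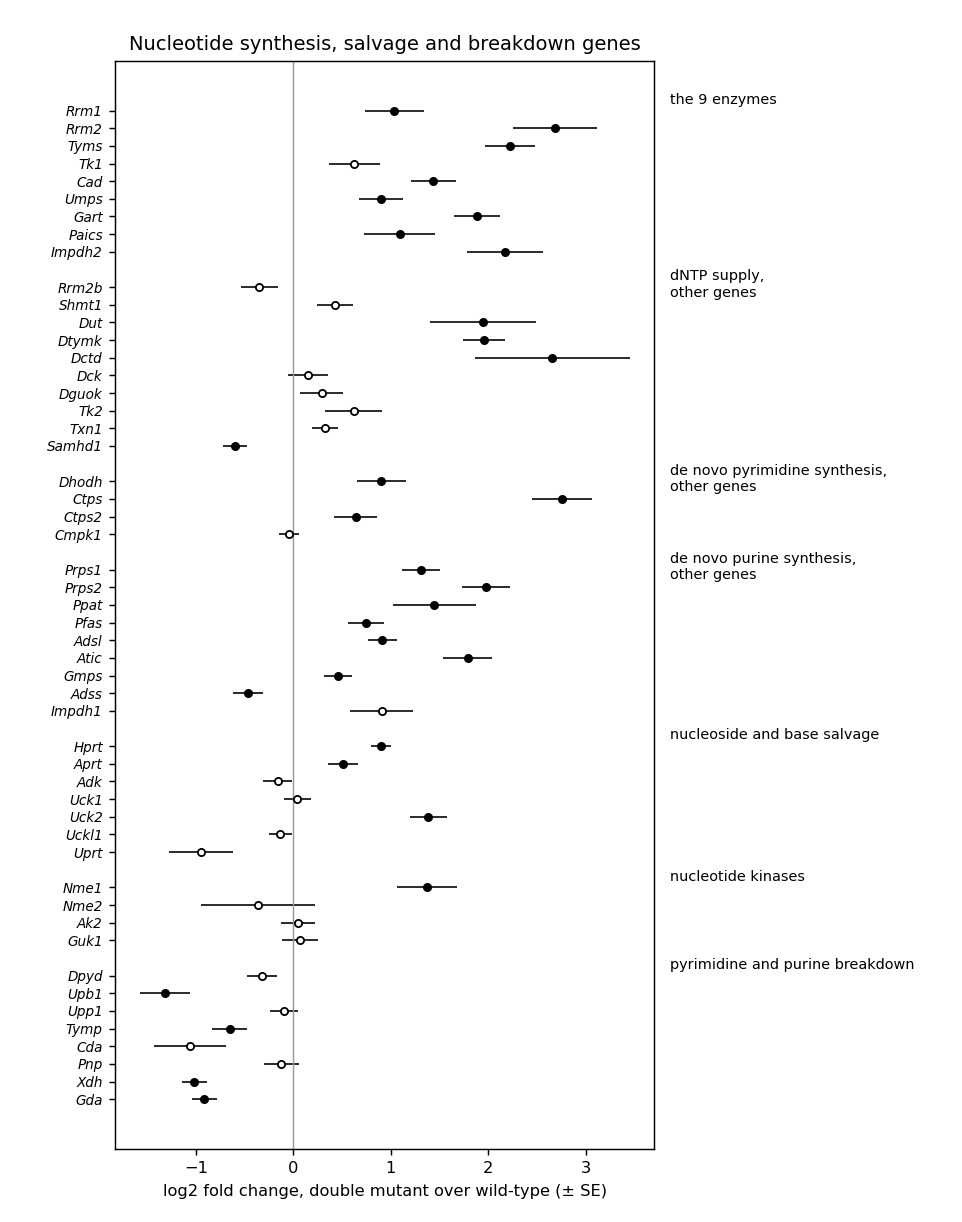
Log2FC of DMV over WTV (± SE, edgeR, 3 mice per group) of the 9 enzymes and of other tested genes of nucleotide metabolism, grouped by role. Filled points have an adjusted p under 0.05 and open points do not. The 9 enzymes lie between 0.63 and 2.69, *Ctps* at 2.76 lies above them, and the breakdown genes lie between -1.32 and -0.10, of which *Upp1* and *Pnp* turn positive with scaling by library size alone.

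Most markers of dividing cells were also higher in DMV. The 15 markers of cycling cells, such as *Mki67*, *Top2a* and *Pcna*, summed to 91.0, 131.3 and 132.2 CPM in WTV mice 1 to 3 and to 313.7, 322.2 and 279.5 CPM in DMV mice 1 to 3. Of these, 13 of 15 were called higher and 0 lower, with a median log2FC of 1.76. The 8 crypt stem cell markers summed to 83.2 to 193.3 CPM in WTV and 304.2 to 386.5 CPM in DMV, with 4 of 8 called higher and 0 lower. The 10 immune markers summed to 77.4 to 146.8 CPM in WTV and 63.2 to 104.1 CPM in DMV, with 6 tested, 2 called lower and 0 higher, and the B cell marker *Cd79a* had 0 counts in all WTV mice. Of 8 mesenchyme markers 6 were in the table, which summed to at most 0.870 CPM in WTV and 2.72 CPM in DMV, and *Col1a2*, *Col3a1* and *Pdgfra* had 0 counts in all WTV mice. The 1 mesenchyme marker tested was not called. The part of these cells in the level of the enzymes was not tested.

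The summed enzymes per unit of summed cycling markers were 0.273, 0.361 and 0.382 in WTV mice 1 to 3 and 0.329, 0.370 and 0.395 in DMV mice 1 to 3, so that the groups overlapped. The enzymes differed among themselves on this scale, which was chosen after their values were seen. Highly expressed markers weigh most in the sum. *Pcna* gave 44.2 of 118 CPM in WTV and 93.9 of 305 CPM in DMV, and its log2FC was 1.09. The log2FC of the 15 markers ran from 0.36 to 2.88, so that a rise on this scale is not a rise beyond each marker. As reads of the enzyme (1 added) per 100 reads of the cycling markers, none of which is an enzyme examined here, *Rrm2* went from 1.15 to 2.93, *Tyms* from 1.55 to 2.75, *Gart* from 2.96 to 4.23 and *Impdh2* from 3.91 to 7.04, each higher in all DMV mice. For *Impdh2* this was a near tie, with 5.162 in the lowest DMV mouse and 5.161 in the highest WTV mouse. *Tk1* went from 6.11 to 3.74 and *Umps* from 4.21 to 3.02, each lower in all DMV mice. For *Umps* the gap was small, from 3.56 in the lowest WTV mouse to 3.52 in the highest DMV mouse. For these 6 enzymes the exact two-sided permutation p was 0.1, the smallest possible, and 0.15 adjusted over the 9. *Rrm1*, *Cad* and *Paics* overlapped between the groups (exact two-sided permutation p = 0.4, 0.5 and 0.6).

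**Figure D4:**
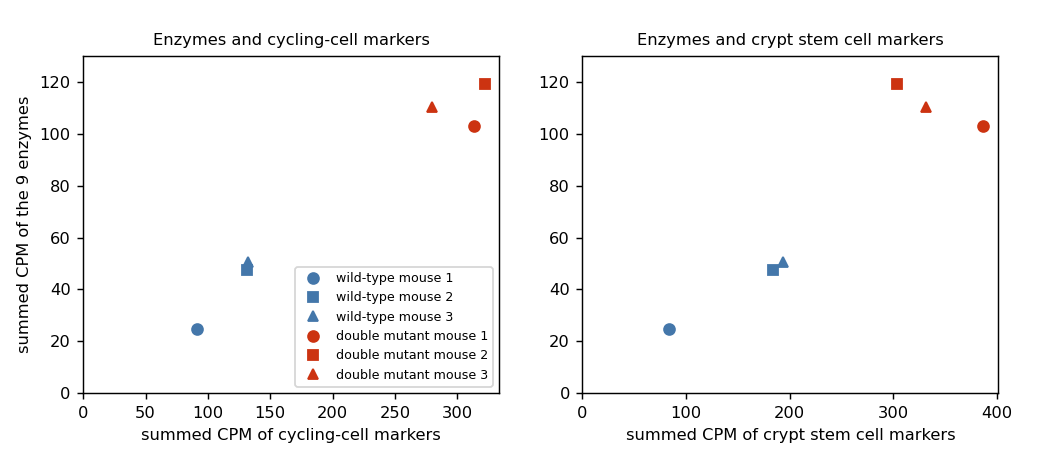
Summed CPM of the 9 enzymes (vertical axis) against the summed CPM of marker lists named over each panel (horizontal axis), with 1 point per mouse. The DMV mice have 103.1 to 119.1 CPM of enzymes at 279.5 to 322.2 CPM of cycling markers, and WTV mouse 1 is lowest on both, at 24.8 and 91.0 CPM.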

How the data were processed

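Raw counts per gene were deposited by the authors, with 1 column per mouse and no normalisation. Per the labels and the study's methods, the authors isolated duodenal villi by EDTA chelation, prepared polyA-enriched libraries, aligned reads to mm9 with HISAT2 and counted them with featureCounts. The strand setting and the treatment of reads with several matches are not given in the sources used here. Totals ran from 19678507 to 26337318 counts per mouse, which limits genes with few reads.

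Symbols and mm9 coordinates came from GENCODE, which held 20032 of the 20073 Ensembl identifiers. The other 336 features are numbered transcripts. Counts were analysed in R 4.3.3 with edgeR 4.0.16: filterByExpr by group (13346 genes), TMM, robust glmQLFit and glmQLFTest on all 6 libraries, with Benjamini-Hochberg adjustment over all genes tested and a threshold of 0.05. The SE of a log2 fold change is its size over the root of the F statistic. CPM are counts over the TMM-scaled library size, ± SD. Ratios within a library (1 read added) were compared by exact permutation tests over 6 mice. DESeq2 1.42.0, limma-voom (limma 3.58.1), other scalings and filters, other fold thresholds, a replicate block, sex as a covariate and leaving out each mouse were the alternatives. On simulated counts of 13299 genes, 49 of 98 genes changed by 1 on the log2 scale were called. Of those changed by 2, 86 of 97 were called. Calls in the wrong direction numbered 0, and 17 unchanged genes were called. A smaller share of genes was changed there than was called in the data.

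The enzymes, pathway lists and marker lists were chosen with earlier results of these data known. Genes named are the 9 enzymes, genes of the fixed lists beside the counts of each list, *Smad4* and *Ctnnb1*, the 5 genes closest in profile, and genes that overlap an enzyme or start within 1 kb of it on the other strand. The ratios to cycling markers were added after the values were seen. Promoters were read from a RefSeq table of GRCm38.p6 and were not placed on mm9. *Dpys* was not analysed here, some genes counted in their lists are not reported here, and *Adssl1* and *Ak1* did not pass the filter.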

Additional observations from a re-analysis of the deposited data

How the results depend on the processing

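The 9 enzymes were higher in DMV under every alternative run. Of 54 values with a mouse left out, 43 kept their side of the threshold and 11 lost it (*Rrm1*, *Umps* and *Paics*), and of 72 values under the other alternatives 70 kept it and *Tk1* passed in the other 2. The number of enzymes called higher was 8, with 5 to 8 when a mouse was left out (5 without DMV mouse 2 or DMV mouse 3, 6 without WTV mouse 2 or DMV mouse 1), and 3 with a log2 fold change over 2 required. Of the other pathway genes 17 were called higher, with 10 to 18 when a mouse was left out (11 without WTV mouse 2, 10 without DMV mouse 2 or DMV mouse 3), 10 over a log2 fold change of 1 and 2 over 2. The 7 called lower became 2 and 0 at these fold thresholds. Of all genes 2632 were called higher and 2273 lower; over a log2 fold change of 1 these were 1454 and 832, and over 2 they were 406 and 302. Scaling by library size alone gave 3732 higher and 1425 lower (72.4% of calls higher, against 53.7%) and moved the median log2 fold change of all genes from 0.02 to 0.22, and 9 enzymes were called. The log2 difference in the ratio of *Tk1* to *Tk2* ranged from -0.050 (without WTV mouse 1) to 0.170 with a mouse left out. The cause of these changes was not tested.

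Deviations of mice with the same replicate number correlated at 0.02, -0.11 and 0.01 across genes. Such values from 3 mice per group cannot exclude a pairing, and mouse 1 was male in both groups. With the replicate block 8 enzymes were called higher and 0 lower, 13 and 8 other pathway genes, and 2084 and 1750 of all genes. In the simulated counts, 50% of genes changed by 1 on the log2 scale and 88.7% of those changed by 2 were called. Genes changed there numbered 98 and 97 of 13299 tested, whereas 36.8% of genes were called in the data. These shares are therefore not the power for the real data.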
